A study of Mus musculus with 8 samples.

Results

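Keratins are the proteins of the intermediate filaments that give epithelial cells their mechanical strength. The family described here was every gene symbol in the count files that begins with Krt followed by a digit, which took 52 of the 23433 symbols counted and left out the keratin-associated proteins of the hair shaft. Counts came from RNA sequencing of sorted epidermal cells of newborn mice, 8 libraries in 4 groups of 2 pups. Transgenic hair germ (HG) and transgenic interfollicular epidermis (IFE) came from pups 4 and 6, of genotype pTRE2-200bcl/K14rtTA, in which a tetracycline-responsive transgene carrying a miR-200 cluster is switched on by doxycycline where K14rtTA, the doxycycline-dependent activator named for keratin 14, is made. Control HG and control IFE came from pup 3, which carried K14rtTA only, and pup 5, which carried pTRE2-200bcl only. All pups were of mixed strain, were taken at postnatal day 0.5, and had dams on doxycycline chow throughout pregnancy. The sort took K14RFP-positive cells in all 4 groups, with high P-cadherin and high α6 integrin for HG and low P-cadherin for IFE, so a reporter named for the product of Krt14, a member of the family, was part of the gate. Each pup gave 1 HG and 1 IFE library, so each group rests on 2 pups. The main test's p-values use a spread pooled over the 4 groups, with the 2 libraries of a pup taken as separate. In control groups that spread also holds the difference between the 2 single-transgene genotypes.

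A keratin filament is built from pairs, each of 1 acidic type I and 1 basic type II protein, and epithelia are told apart by which pair they make. Dividing basal keratinocytes make Krt5 and Krt14, cells that have left the basal layer switch to Krt1 and Krt10, the outer root sheath and wounded epidermis use Krt6a, Krt16 and Krt17, and simple, single-layered epithelia use Krt8 and Krt18. In mouse skin a hair germ is the epidermal downgrowth that will form the follicle, and its later layers make further keratins of the inner root sheath and the hair shaft. Of the 52 symbols 27 were type I, 24 were type II and Krt222 was assigned to neither. On the GRCm38 build with GENCODE M21 annotation, 51 symbols had a position. All type I genes but Krt18 lay on chromosome 11 between 99279959 and 100269871, and the type II genes on chromosome 15 between 101347444 and 102004482. Krt18 (chr15:102028180-102032027, plus strand) lay 23697 bases beyond its type II partner Krt8 (chr15:101996698-102004482, minus strand), at the end of the type II row.

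The libraries held 7109871 to 14039583 counts assigned to genes. The ribosomal RNA gene Rn45s took 30.6% of them in control IFE pup 3 and 29.0% in transgenic IFE pup 4, and 3.56% to 13.0% in the other libraries. The primary miR-200 transcript had 5973 and 6581 counts in transgenic HG and 4499 and 9449 in transgenic IFE, against 2 and 21 in control HG and 22 and 31 in control IFE. Of 7 hair germ markers, Shh, Lhx2, Edar and Sox9 were higher in HG with no overlap in both genotypes. The share of all genes so placed is not given here, so this describes the markers only. In transgenic pups Shh, Lhx2 and Edar were called, where 4.64% of all genes were. In control pups 0 markers were called, where only 1 gene of all tested was (0.00705%). Lhx2, a follicle stem cell factor, stood at 75.8 and 126 CPM (counts relative to the scaled library total) in transgenic HG against 17.5 and 17.2 CPM in transgenic IFE. In control pups it stood at 37.3 and 26.8 CPM in HG against 11.5 and 5.09 CPM in IFE. Lef1 and Wnt10b overlapped between HG and IFE in both genotypes, Wnt10b at 44.8 and 72.1 CPM in transgenic HG against 68.25 and 50.3 CPM in transgenic IFE. Cdh3, the P-cadherin gene of the sort, overlapped in control pups, at 353 and 436 CPM in HG against 293 and 386 CPM in IFE. Leukocyte markers did not stay at 0 in these sorts: the summed level of 15 immune genes was 348 and 209 CPM in transgenic HG and 3036 and 2409 CPM in transgenic IFE, against 115 and 58.6 CPM in control HG and 209 and 109 CPM in control IFE. Of 14 immune genes tested, 13 rose in transgenic IFE, where 4.99% of all genes tested did. In transgenic HG 4 rose, where 0.952% of all genes were called in either direction. Their part in the keratin values was not tested. For 11 members GENCODE lists a gene on the other strand, and no source used here gives the strand setting of the counting, so reads of such a partner cannot be told apart. In bulk libraries, fewer cells of a type and less RNA per cell cannot be told apart.

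Krt5 and Krt14 together made up 70.1% to 82.8% of all keratin counts in every library, and with the next 5 genes they made up 96.6% to 99.7%. Set per kilobase of exon, so that genes can be compared, the mean level over the 8 libraries was 4717 CPM per kb for Krt5, 3960.2 for Krt14, 1092 for Krt17, 569 for Krt15, 350.2 for Krt10 and 158 for Krt16, with Krt1 between the last 2 genes. These were the 7 members at 100 CPM per kb or above, and 11 others lay between 1 and 100. The next was Krt79 at 37.8 CPM per kb, then Krt77 at 20.3, with Krt18 at 6.71, Krt6a at 4.83 and Krt8 at 4.24. Krt1 and Krt10 averaged 135 ± 36.2 and 222 ± 0.565 CPM per kb in transgenic HG (SD, n = 2), and 404 ± 232 and 551 ± 426 in control IFE. Although pups of control IFE differed by more than this gap, Krt10 per kb was above Krt1 within each of the 8 libraries, by 1.04 to 2.03 times. That order rests on the merged exon lengths, 4415 bases for Krt1 and 2114 for Krt10. Without division by length Krt1 was above Krt10 in each of the 8 libraries. In transgenic HG it stood at 709 and 482 CPM against 468 and 469.7 CPM for Krt10. Type I genes took 47.2 and 47.9% of the keratin counts in transgenic HG and 44.7 and 50.6% in control HG. In IFE they took 46.6 and 49.7% in transgenic and 43.2 and 51.4% in control libraries. By counts the 2 types thus stayed near balance in each library. Per kb, type I over type II was 1.23 and 1.24 in transgenic HG and 1.07 and 1.35 in control HG. It was 1.22 and 1.36 in transgenic IFE and 1.02 and 1.39 in control IFE, so type I stood above type II in every library.

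At least 1 count was found for 47 members, and 16 had counts in all 8 libraries. Krt33b, Krt39, Krt81, Krt85 and Krt86, all keratins of the hair shaft, had 0 counts in all 8, which allows levels of up to 0.199 to 0.522 CPM depending on the library (3 counts, counting error only). A filter on low counts kept 26 members for testing, 12 of type I, 13 of type II and Krt222. None of the 26 left out exceeded 3.69 CPM in any library, among them Krt2, the late suprabasal keratin of the epidermis, with 3 and 0 counts in transgenic HG and 0 in the other 6 libraries. A member that passed through 1 high group had to differ between groups, so counts over the 26 describe them and are not evidence on the family as a whole.

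**Figure D1:**
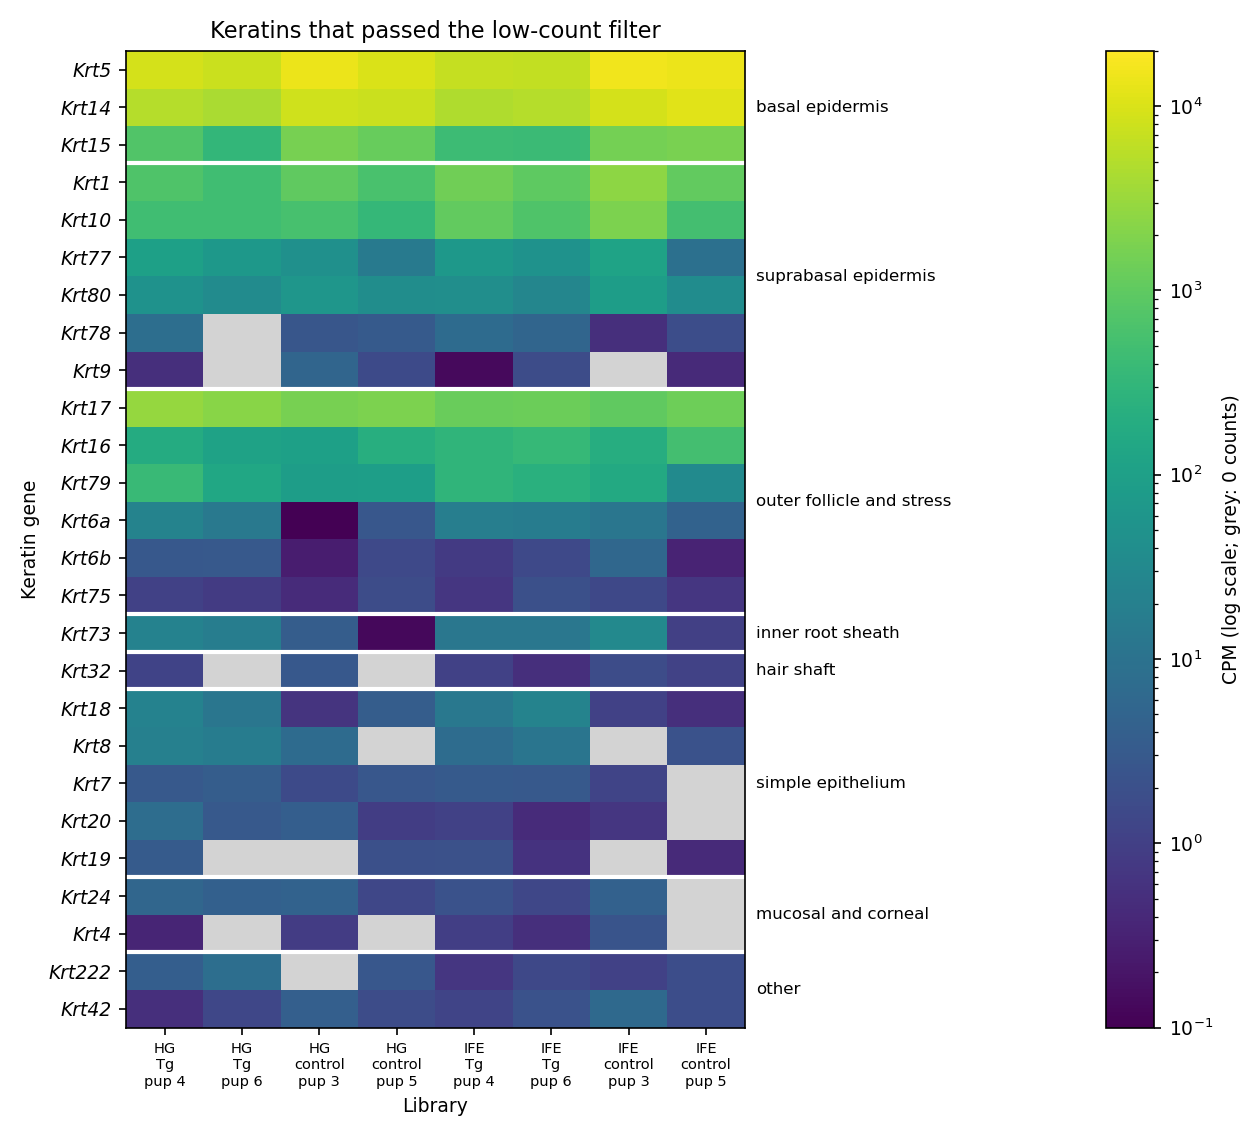
Level of the 26 keratins that passed the low-count filter (rows, by class) in the 8 libraries (columns), coloured by CPM on a log scale, with grey for 0 counts. Krt5 and Krt14 were highest in every library, Krt17 was highest in transgenic HG, and the simple epithelial keratins Krt18 and Krt8 were higher in the transgenic libraries of both populations than in the controls.

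The summed keratin level, most of it Krt5 and Krt14, was lower in transgenic libraries. Members taken singly lay on both sides: of the 26 tested, 15 had a fold change above 1 in HG and 11 below, and 12 and 14 in IFE. The sum was 20122 and 15725 CPM in transgenic HG against 26985 and 22067 CPM in control HG, and 16585 and 15838 CPM in transgenic IFE against 31689 and 30775 CPM in control IFE. Both transgenic libraries lay below both controls in each population, by a wider margin in IFE. As a share of all gene counts, with no scaling between libraries, keratins took 1.97% ± 0.210 in transgenic HG against 2.67% ± 0.430 in control HG, and 1.57% ± 0.314 in transgenic IFE against 2.71% ± 0.352 in control IFE (SD, n = 2 each). With Rn45s left out of the total, the shares were 2.44 and 1.95% in transgenic HG and 3.15 and 2.45% in control HG, where control pup 5 then stood just above transgenic pup 4, and 1.90 and 1.87% in transgenic IFE and 3.54 and 3.07% in control IFE. The Wilson 95% interval of each share was no wider than 0.0112 percentage points on its upper side, so counting error was small beside the spread between pups. With 2 pups per group a two-sided exact permutation test cannot go below p = 0.333, and none is given for these sums.

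Which keratins made up the pool differed between genotypes in both populations. The basal keratins Krt5, Krt14 and Krt15 took 75.3 and 76.3% of keratin counts in transgenic HG against 86.8 and 85.7% in control HG, and 72.7 and 76.6% in transgenic IFE against 81.2 and 88.4% in control IFE. The outer follicle and stress keratins (Krt6a, Krt6b, Krt16, Krt17, Krt75 and Krt79) took 17.6 and 16.5% in transgenic HG against 6.65 and 9.67% in control HG, and 11.2 and 11.9% in transgenic IFE against 4.37 and 6.21% in control IFE. Neither class's share overlapped between genotypes in either population. By summed level the outer follicle and stress class was apart in HG, at 3535 and 2587 CPM in transgenic against 1795 and 2134 CPM in control libraries. It overlapped in IFE, at 1861 and 1885 CPM in transgenic against 1384 and 1911 CPM in control libraries, so its higher share there goes with a smaller keratin total. Simple epithelial keratins were a trace of the pool throughout, at 0.284 and 0.227% in transgenic HG against 0.0485 and 0.0422% in control HG, and 0.164 and 0.250% in transgenic IFE against 0.00934 and 0.0102% in control IFE.

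Tested gene by gene across the 14176 genes that passed the filter (edgeR's quasi-likelihood test, Benjamini-Hochberg adjustment, called where the adjusted p was under 0.05), 0 of 26 keratins were called between transgenic and control HG, where 0.952% of all genes were called. At an unadjusted p under 0.05 there were 9, against 17.1% of all genes. DESeq2 called 5 keratins among 663 genes and limma-voom 0 among 17, beside 135 genes in the main test. In IFE 3 of 26 were called, where 6.34% of all genes were. Krt15 and Krt14 fell, where 1.35% of all genes did, and Krt18 rose, where 4.99% did. The median log2 fold change of the 26 was 0.57 in HG, beside 0.04 for all genes tested, and -0.10 in IFE, beside -0.01. Libraries did not overlap between genotypes for 15 keratins in HG, 10 higher and 5 lower in transgenic pups, where 22.4% and 16.9% of all genes were so placed, and for 11 in IFE, 7 higher and 4 lower, where 27.9% and 25% were.

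**Figure D2:**
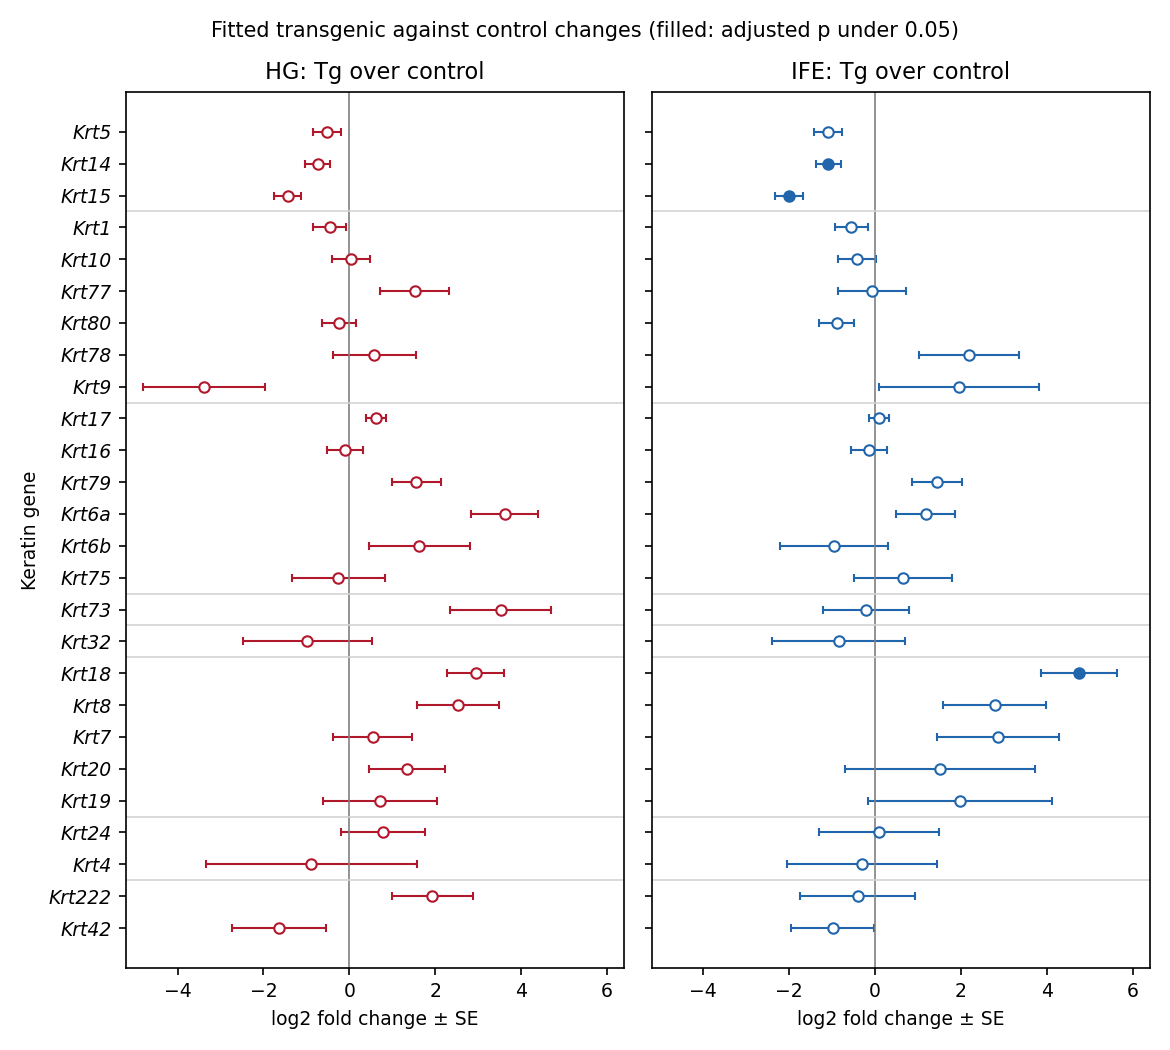
Fitted log2 fold change of transgenic over control libraries, with its standard error, for the 26 tested keratins in HG (left) and IFE (right), grouped by class, with filled points for adjusted p under 0.05. In IFE, Krt15 at -2.00, Krt14 at -1.08 and Krt18 at 4.75 were called, and in HG none was.

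The basal keratins were lower in transgenic cells of both populations. All 3 members were non-overlapping between genotypes in HG and in IFE, where 16.9% and 25% of all genes were lower with no overlap. Krt15 (chr11:100131758-100135928), a type I keratin of basal cells and of follicle stem cells, stood at 716 and 326 CPM in transgenic HG against 1629 and 1200.1 CPM in control HG, and at 422 and 413 CPM in transgenic IFE against 1583 and 1749 CPM in control IFE. Its transgenic IFE libraries lay close together while the 2 transgenic HG libraries were apart. It fell in IFE (log2 fold change -2.00, SE 0.32, adjusted p = 0.00281), and in HG it narrowly missed the threshold (log2 fold change -1.44, SE 0.32, adjusted p = 0.0562). The IFE call held under all 18 alternatives run, and 0.64% of its 50-base windows occur in another gene.

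Krt5 (chr15:101707070-101712898) and Krt14 (chr11:100203162-100207548), the type II and type I partners of the basal layer, were lower together. Of the 50-base windows of Krt5 8.52% occur in another gene, most often Krt6a, and of those of Krt14 13.9%, most often Krt16. Krt5 also overlaps Gm44323 on the other strand. Krt5 stood at 9283 and 7402 CPM in transgenic HG against 13669 and 10127 CPM in control HG, and at 6947 and 6615 CPM in transgenic IFE against 15066 and 13793 CPM in control IFE. Krt14 stood at 5152 and 4277 CPM in transgenic HG against 8137 and 7588 CPM in control HG, and at 4684 and 5102 CPM in transgenic IFE against 9082 and 11675 CPM in control IFE. Every transgenic library was below every control library of its population for both genes. Krt14 fell in IFE (log2 fold change -1.08, SE 0.29, adjusted p = 0.0484), while the test was not passed in HG (log2 fold change -0.74, SE 0.29, adjusted p = 0.222). Krt5 did not pass in either, with a log2 fold change of -1.09 in IFE (adjusted p = 0.0784) and -0.51 in HG (adjusted p = 0.455). In IFE Krt5 did pass in 8 of 18 alternatives, among them DESeq2 (adjusted p = 6.31e-06), limma-voom (0.00333) and no filter on low counts (0.0139). The IFE call of Krt14 sat at the threshold and held in 8 of 18 alternatives: it was lost with library size scaling (adjusted p = 0.651), which puts the median of all genes in that contrast at 0.15 rather than -0.01, and without any 1 of the 4 transgenic libraries (0.147 to 0.215) or without control IFE pup 5 (0.0691). It was lost too with DESeq2's size factors (0.0526), with the compared groups alone (0.171), without both libraries of pup 4 (0.744) and without the 2 libraries richest in Rn45s (0.0734). Since K14RFP gated the sort, a Krt14 level here is that of cells already chosen for the reporter.

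**Figure D3:**
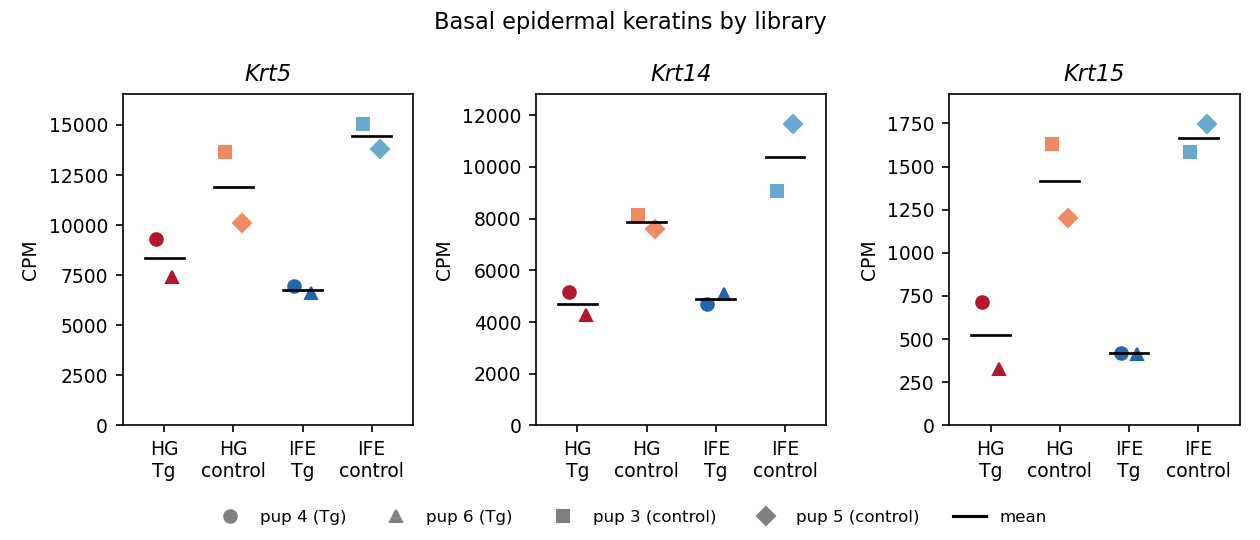
CPM of Krt5, Krt14 and Krt15 in each library of transgenic and control HG and IFE, on linear axes from 0, with a symbol per pup and a line for the mean of 2 pups. For each gene both transgenic libraries lie below both control libraries of the same population, and for Krt15 in IFE 422 and 413 CPM in transgenic pups stand against 1583 and 1749 CPM in control pups.

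The promoter of Krt5, the highest member, is printed beside that of Krt10, a keratin whose genotypes overlapped, so that a basal and a suprabasal promoter can be compared. Each line is a RefSeq window on GRCm38.p6, 250 bases before to 50 after the annotated start, read 5′ to 3′ on the gene's strand: chr15:101712856-101713155 (minus strand) for Krt5 and chr11:99389315-99389614 (minus strand) for Krt10. Capitals mark a match on either strand to TATAAA, the core of a TATA box, to TGANTCA, the site of AP-1 factors, or to GGGCGG, a GC box. Krt10 held the TATA letters 26 bases before its start, and the Krt5 window held none of the 3 motifs.
Krt5: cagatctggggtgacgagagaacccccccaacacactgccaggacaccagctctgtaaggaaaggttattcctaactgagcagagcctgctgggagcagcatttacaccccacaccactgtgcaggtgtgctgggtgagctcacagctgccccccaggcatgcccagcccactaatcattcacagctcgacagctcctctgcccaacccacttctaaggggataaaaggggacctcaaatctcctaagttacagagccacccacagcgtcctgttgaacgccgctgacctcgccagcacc
Krt10: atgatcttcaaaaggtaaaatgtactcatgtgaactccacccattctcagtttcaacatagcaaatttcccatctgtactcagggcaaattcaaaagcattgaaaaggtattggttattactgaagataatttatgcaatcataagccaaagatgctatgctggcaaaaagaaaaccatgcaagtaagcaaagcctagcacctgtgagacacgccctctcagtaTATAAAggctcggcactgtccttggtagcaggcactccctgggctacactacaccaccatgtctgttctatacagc
Across the 36 windows available for 35 keratin genes, TATAAA occurred in 52.8%, against 13.6% of all 32851 promoter windows, TGANTCA in 5.56% against 7.81%, and GGGCGG in 5.56% against 35.7%. These are matches of letters only, and nothing about a factor is drawn from them. The RefSeq start can lie inside the GENCODE gene, by 1518 bases for Krt14, 1360 for Krt7, 989 for 1 of the 2 windows of Krt13 and 140 for Krt8, so the Krt14 window is not printed as a promoter.

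Within a library, ratios between keratins do not depend on how libraries are scaled. Krt15 per kb was 0.138 and 0.0759 of Krt14 in transgenic HG against 0.199 and 0.157 in control HG, and 0.0897 and 0.0804 in transgenic IFE against 0.173 and 0.149 in control IFE. So Krt15 was lower also relative to its fellow basal keratin in every transgenic library. Krt14 relative to Krt5 per kb was 0.694 and 0.722 in transgenic HG against 0.744 and 0.936 in control HG, with no overlap, and 0.843 and 0.964 in transgenic IFE against 0.753 and 1.06 in control IFE, which overlapped. Basal cell genes outside the family are given for comparison: of Itga6, Itgb4, Col17a1 and Trp63, 3 fell in transgenic IFE, where 1.35% of all genes did. In HG 0 were called, where 0.952% of all genes were. There 3 were lower with no overlap, where 16.9% of all genes were, and the median was -0.36. Col17a1, a hemidesmosome collagen, stood at 2573 and 2224 CPM in transgenic HG against 3246 and 3520.4 CPM in control HG (adjusted p = 0.299), and at 2108 and 2195 CPM in transgenic IFE against 4030.1 and 4275 CPM in control IFE (log2 fold change -0.95, SE 0.23, adjusted p = 0.0315).

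Of the outer follicle and stress keratins 0 of 6 were called between genotypes in HG or IFE, where 0.952% and 6.34% of all genes were. The median log2 fold change was 1.09 in HG and 0.37 in IFE. Krt17 (chr11:100256217-100261029), a type I keratin of hair follicles that is induced in stressed epidermis, stood at 2937 and 2315 CPM in transgenic HG against 1606 and 1821 CPM in control HG, and at 1241 and 1279 CPM in transgenic IFE against 999 and 1355 CPM in control IFE. Both transgenic HG libraries were above both controls, whereas in IFE the genotypes overlapped. The fitted change was 0.62 on the log2 scale in HG (SE 0.23, adjusted p = 0.208) and 0.10 in IFE (SE 0.23, adjusted p = 0.923). Against Krt14 in the same library, Krt17 per kb was 0.646 and 0.613 in transgenic HG against 0.224 and 0.272 in control HG, and 0.300 and 0.284 in transgenic IFE against 0.125 and 0.132 in control IFE. This ratio was higher in transgenic than in control libraries in both populations, and higher in HG than in IFE in both genotypes. There was no overlap in any of the 4 comparisons. In IFE, where Krt17 itself overlapped between genotypes, the higher ratio goes with the lower Krt14.

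**Figure D4:**
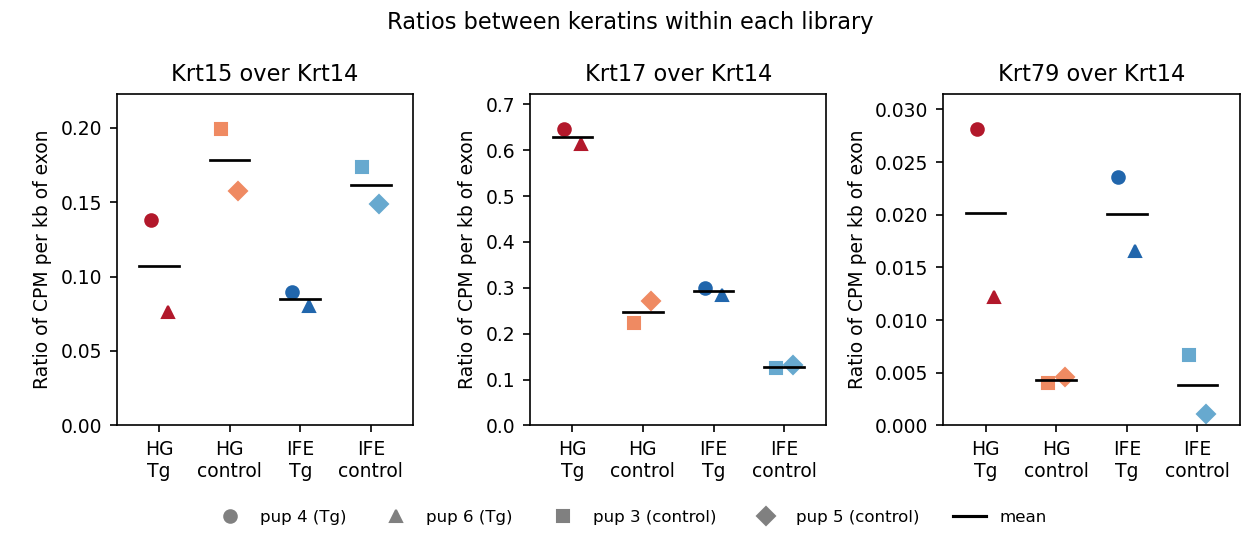
Ratios of CPM per kb of exon within each library, Krt15 over Krt14, Krt17 over Krt14 and Krt79 over Krt14, on linear axes from 0, with a symbol per pup and a line for the mean of 2 pups. Krt17 over Krt14 averaged 0.630 in transgenic HG against 0.248 in control HG and 0.292 in transgenic IFE against 0.128 in control IFE. Krt15 over Krt14 was lower in transgenic libraries. The Krt14 level that each ratio is set against was itself lower in transgenic libraries of both populations.

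Krt79 (chr15:101929332-101940324), a type II keratin of the upper follicle and its opening, stood at 392 and 141 CPM in transgenic HG against 87.7 and 93.7 CPM in control HG, and at 299 and 229 CPM in transgenic IFE against 163 and 33.9 CPM in control IFE. The genotypes did not overlap in either population, although the 2 transgenic HG libraries and the 2 control IFE libraries each differed widely. The change passed the test in neither, with log2 fold changes of 1.56 in HG (SE 0.57, adjusted p = 0.195) and 1.44 in IFE (SE 0.58, adjusted p = 0.205). The HG value was 0.59 without transgenic HG pup 4 and 2.09 without transgenic HG pup 6, and the IFE value 3.02 without control IFE pup 3 (adjusted p = 0.0121) and 0.70 without control IFE pup 5. With library size scaling it passed in HG (adjusted p = 0.0370) and in IFE (0.00803), and without the 2 libraries richest in Rn45s in IFE (0.0440). Relative to Krt14 per kb it was 0.0281 and 0.0122 in transgenic HG against 0.00399 and 0.00457 in control HG, and 0.0236 and 0.0166 in transgenic IFE against 0.00664 and 0.00107 in control IFE.

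Krt6a (chr15:101689910-101694307), the type II partner induced in wounded epidermis and made in the follicle's companion layer and outer root sheath, had 269 and 117 counts in transgenic HG against 1 and 41 in control HG. In CPM these were 23.7 and 14.2 in transgenic HG against 0.0879 and 2.72 in control HG, beside 18.6 and 17.2 in transgenic IFE against 12.2 and 4.75 in control IFE. Control HG was the low group, and the transgenic values of HG and IFE overlapped. The change narrowly missed the threshold in HG (log2 fold change 3.62, SE 0.78, adjusted p = 0.0535) and was 1.18 on the log2 scale in IFE (adjusted p = 0.443). The HG value was 7.56 without control HG pup 5 (adjusted p = 0.0209), where the control left has 1 count, and 2.75 without control HG pup 3 (0.0788). It passed also with library size scaling (0.00390), DESeq2 (0.00477), no filter (0.0365) and Rn45s removed before scaling (0.0405). The IFE value was 1.97 without control IFE pup 3 and 0.55 without control IFE pup 5. Of the 50-base windows of Krt6a 45.7% occur in another gene, most often its near copy Krt6b. Krt6b had 2.82 and 3.03 CPM in transgenic HG against 0.264 and 1.46 CPM in control HG, and 0.809 and 1.51 CPM in transgenic IFE against 5.92 and 0.340 CPM in control IFE, and the split of reads between both genes is uncertain. Krt16 (chr11:100246091-100248902), a type I stress keratin, overlapped between genotypes in both populations, at 178 and 114 CPM in transgenic HG against 101 and 214 CPM in control HG. Of its windows 37.6% occur in other genes, most often Gm11597, so its level is uncertain too. Krt75, a keratin of the companion layer, stayed between 0.439 and 1.96 CPM in all libraries.

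The simple epithelial keratins were low but higher in transgenic cells of both populations. Their summed level was 57.1 and 35.7 CPM in transgenic HG against 13.1 and 9.30 CPM in control HG, and 27.2 and 39.5 CPM in transgenic IFE against 2.96 and 3.14 CPM in control IFE. The genotypes were well apart in both populations. Of the 5 tested, Krt7, Krt8, Krt18, Krt19 and Krt20, 1 rose in IFE, where 4.99% of all genes did. In HG 0 were called, where 0.952% of all genes were. The median log2 fold changes were 2.79 in IFE and 1.34 in HG.

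Krt18, the type I keratin of simple epithelia, had 253 and 98 counts in transgenic HG against 7 and 54 in control HG, and 100 and 314 in transgenic IFE against 6 and 6 in control IFE. This came to 22.3 and 11.9 CPM in transgenic HG against 0.615 and 3.59 CPM in control HG, and to 13.5 and 23.7 CPM in transgenic IFE against 1.04 and 0.509 CPM in control IFE. All 4 transgenic libraries were above all 4 controls. Krt18 rose in IFE (log2 fold change 4.75, SE 0.89, adjusted p = 0.00560) and narrowly missed the threshold in HG (log2 fold change 2.94, SE 0.67, adjusted p = 0.0562). Without control HG pup 5 the HG value was 4.77 (adjusted p = 0.0264), and without control HG pup 3 it was 2.21. The IFE call held in 14 of 18 alternatives and was lost with limma-voom (adjusted p = 0.0874), without control IFE pup 5 (0.190), without transgenic IFE pup 6 (0.0732) and without the 2 libraries richest in Rn45s (0.121), with log2 fold changes of 4.18 to 5.53 over all 18. Genes of melanocytes, which also can enter such a sort, were higher with it as a sum: 11 of them summed to 157 and 206 CPM in transgenic HG and 170.1 and 149 CPM in transgenic IFE, against 36.6 and 32.8 CPM in control HG and 24.4 and 21.5 CPM in control IFE. Of the 11 tested, 4 rose in HG, where 0.952% of all genes were called in either direction. In IFE 5 rose, where 4.99% of all genes did. Members differed: Gpnmb (68.7 and 41.3 CPM) and Mitf (54.1 and 43.2 CPM) made up most of the melanocyte sum in transgenic IFE. Both were among the 5 that rose there. Like the summed immune genes, both were higher in transgenic IFE than in transgenic HG, while Dct, Pmel, Kit and Tyr were lower. Tyr did not rise in IFE, at 14.8 and 11.6 CPM in transgenic against 18.6 and 12.8 CPM in control libraries. The part of the melanocyte genes, and that of the immune genes, in the rise of Krt18 was not tested.

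Krt8, its type II partner, had 235 and 142 counts in transgenic HG against 81 and 0 in control HG, and 56 and 155 in transgenic IFE against 0 and 26 in control IFE. The levels were 20.7 and 17.2 CPM in transgenic HG against 7.12 and 0 CPM in control HG, and 7.55 and 11.7 CPM in transgenic IFE against 0 and 2.21 CPM in control IFE. As for Krt18, transgenic libraries lay above the controls, with 1 control library at 0 in each population. The test was passed in neither, with log2 fold changes of 2.53 in HG (SE 0.95, adjusted p = 0.200) and 2.79 in IFE (SE 1.20, adjusted p = 0.244). In HG the value was 1.41 without control HG pup 5, and it passed at 10.60 without control HG pup 3 (adjusted p = 0.0282), where the control left has 0 counts and the fitted size depends on the prior count. In IFE it was 9.69 without control IFE pup 5, again against 0 counts, and it passed without either control HG library (0.0475 and 0.0462). Of the windows of Krt8 26.9% occur in other genes, most often the pseudogene Krt8-ps, and it overlaps Gm36026 on the other strand, so its level is less certain than that of Krt18, with 0.72% shared. Krt7, a type II keratin of ducts and glands, had 2.99 and 3.64 CPM in transgenic HG against 1.58 and 2.79 CPM in control HG, and 3.10 and 3.02 CPM in transgenic IFE against 1.22 and 0 CPM in control IFE.

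**Figure D5:**
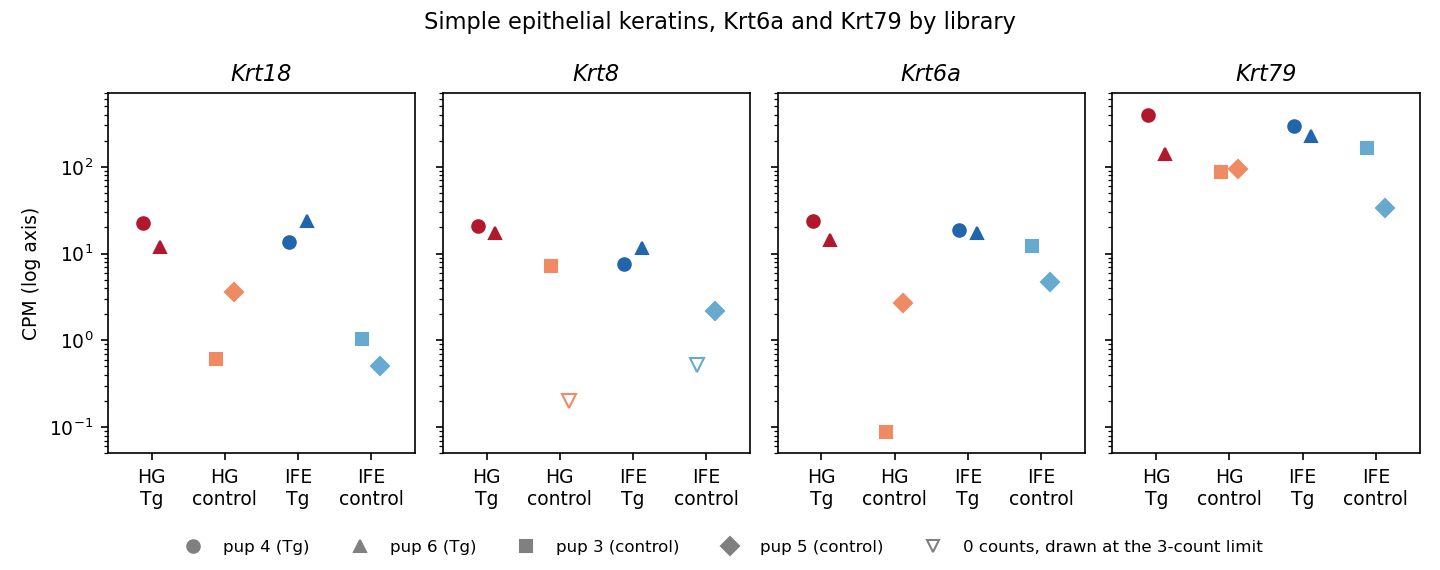
CPM of Krt18, Krt8, Krt6a and Krt79 in each library on a log axis, with a symbol per pup; open triangles stand for 0 counts and are drawn at the level that 3 counts would give. Transgenic libraries lie above control libraries of the same population for all 4 genes, and Krt8 has 1 control library at 0 counts in each population.

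In skin, Krt8, Krt18 and Krt20 are also made by Merkel cells, the touch receptor cells of the epidermis, so markers of those cells outside the family are given beside them. The summed level of 9 Merkel genes was 35.6 and 33.7 CPM in transgenic HG against 29.9 and 22.0 CPM in control HG, and 7.82 and 5.29 CPM in transgenic IFE against 13.2 and 6.20 CPM in control IFE. Of 7 tested, 0 were called between genotypes in either population, where 0.952% of all genes were in HG and 6.34% in IFE. The median was 1.50 in HG. In IFE it was 0.00, which is the value of Atoh1, a gene at 0 in all 4 IFE libraries, and so is not a measured change. Cck was at 0 in all libraries. In HG 4 of the 7, Isl1, Insm1, Rab3c and Sox2, were higher in both transgenic libraries than in both controls, where 22.4% of all genes were. Piezo2 alone was lower with no overlap, where 16.9% of all genes were, at 11.2 and 6.18 CPM in transgenic HG against 18.4 and 15.8 CPM in control HG. Isl1, a transcription factor of Merkel cells, stood at 4.49 and 6.42 CPM in transgenic HG against 0 and 0.797 CPM in control HG. Atoh1, the factor that specifies Merkel cells, was at 0 in all 4 IFE libraries and at 2.82 and 1.70 CPM in transgenic HG against 4.04 and 0.532 CPM in control HG. Sox2 stood at 4.84 and 4.36 CPM in transgenic HG against 0.351 and 0 CPM in control HG, and did not exceed 0.270 CPM in IFE. The part of Merkel cells in the values of Krt8, Krt18 and Krt20 was not tested. Krt20, named here because it marks Merkel cells and not by the rule on levels, had 7.92 and 3.03 CPM in transgenic HG against 1.08 and 0.453 CPM in transgenic IFE, and 3.78 and 0.930 CPM in control HG against 0.697 and 0 CPM in control IFE.

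Krt8 and Krt18 are neighbours that were higher together, and their promoter windows are shown for that reason, chr15:102004293-102004592 (minus strand) for Krt8 and chr15:102027966-102028265 (plus strand) for Krt18, with matches to the same 3 motifs in capitals.
Krt8: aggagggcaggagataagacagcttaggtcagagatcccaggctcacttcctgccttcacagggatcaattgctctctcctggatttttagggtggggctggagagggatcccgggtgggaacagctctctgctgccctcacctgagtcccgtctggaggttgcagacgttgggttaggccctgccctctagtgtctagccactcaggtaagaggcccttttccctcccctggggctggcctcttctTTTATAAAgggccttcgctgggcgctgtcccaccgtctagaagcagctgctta
Krt18: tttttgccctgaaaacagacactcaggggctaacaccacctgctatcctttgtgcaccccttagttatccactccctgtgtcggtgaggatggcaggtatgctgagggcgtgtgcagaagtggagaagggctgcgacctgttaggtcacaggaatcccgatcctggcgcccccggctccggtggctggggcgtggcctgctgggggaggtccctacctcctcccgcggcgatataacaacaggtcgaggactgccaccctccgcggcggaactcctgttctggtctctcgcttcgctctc
The Krt8 window held TATAAA on both strands in overlap, 3 and 1 bases before the RefSeq start, which lies 140 bases inside the GENCODE gene, and the Krt18 window held none of the 3 motifs.

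The suprabasal keratins showed no called difference between genotypes: 0 of 6 tested passed in HG or in IFE (edgeR's quasi-likelihood test). Of all genes 0.952% passed in HG and 6.34% in IFE. The median log2 fold changes of the 6 were -0.10 in HG and -0.24 in IFE. Krt1 (chr15:101845426-101850794), the type II keratin of the spinous layer, had 709 and 482 CPM in transgenic HG against 1031 and 607 CPM in control HG, and 1443 and 989.8 CPM in transgenic IFE against 2509 and 1058 CPM in control IFE. Krt10 (chr11:99385254-99389364), its type I partner, had 468 and 469.7 CPM in transgenic HG against 575 and 332 CPM in control HG, and 1059 and 689 CPM in transgenic IFE against 1802 and 529 CPM in control IFE. The genotypes overlapped for both genes in both populations, and control IFE pup 3, a library rich in Rn45s, held the highest value of each. Krt77, a suprabasal type II keratin, had 102 and 68.5 CPM in transgenic HG against 45.5 and 14.6 CPM in control HG, and 68.4 and 49.3 CPM in transgenic IFE against 118 and 8.91 CPM in control IFE, where 1 control library was the highest of all and the other the lowest. The ratio of Krt1 and Krt10 to Krt5 and Krt14, per kb, was 0.0534 and 0.0571 in transgenic HG against 0.0466 and 0.0330 in control HG, and 0.142 and 0.0930 in transgenic IFE against 0.118 and 0.0379 in control IFE. It did not overlap between genotypes in HG and did in IFE. Suprabasal genes outside the family summed to 262 and 183 CPM in transgenic HG against 264 and 199 CPM in control HG, and to 328 and 264 CPM in transgenic IFE against 553 and 338 CPM in control IFE.

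Among keratins of differentiated follicle layers, Krt73 was the 1 above a trace. It was the only 1 of 8 inner root sheath keratins that passed the filter, with 22.1 and 18.1 CPM in transgenic HG against 3.69 and 0.133 CPM in control HG, and 12.5 and 12.5 CPM in transgenic IFE against 31.2 and 1.02 CPM in control IFE. Transgenic HG lay above control HG with no overlap, but the test was not passed (log2 fold change 3.53, SE 1.17, adjusted p = 0.161), and control IFE pup 3 held the highest value of all. The HG value ran to 7.07 without control HG pup 3 and 2.44 without control HG pup 5. Of 15 hair shaft keratins, 10 had a count and 1, Krt32, was tested, at no more than 2.90 CPM in any library. The whole hair shaft class summed to 2.55 and 3.51 CPM in transgenic HG against 6.68 and 1.13 CPM in control HG, and to 2.16 and 0.605 CPM in transgenic IFE against 2.61 and 1.27 CPM in control IFE, which are 8 to 76 counts a library. Among mucosal and corneal keratins, Krt24 was the only member averaging 1 CPM or more over the 8 libraries, at 5.63 and 4.24 CPM in transgenic HG against 4.74 and 1.33 CPM in control HG. Krt222 had 3.78 and 8.36 CPM in transgenic HG against 0 and 2.79 CPM in control HG, and 0.674 and 1.44 CPM in transgenic IFE against 1.04 and 1.78 CPM in control IFE. Krt42 had 0.528 and 1.33 CPM in transgenic HG against 3.95 and 1.73 CPM in control HG, and 1.21 and 2.19 CPM in transgenic IFE against 6.44 and 1.78 CPM in control IFE.

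Between populations of the same pups, Krt17 set HG apart from IFE. In transgenic pups it was called higher in HG (log2 fold change 1.06, SE 0.24, adjusted p = 0.0255), with HG over IFE ratios of 2.37 in pup 4 and 1.81 in pup 6, and it was the 1 keratin of 26 called where 4.64% of all genes were. In control pups the ratios were 1.61 in pup 3 and 1.34 in pup 5, and the test was not passed (log2 fold change 0.54, SE 0.23, adjusted p = 0.580). The transgenic call was lost without any 1 of the 4 transgenic libraries (adjusted p = 0.134 to 0.220), without both libraries of pup 4 (0.783), without the 2 libraries richest in Rn45s (0.122) and with library size scaling (0.112), which puts the median of all genes at 0.20 rather than 0.02, with log2 fold changes of 0.80 to 1.23 in these fits.

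Krt1, Krt10 and Krt16 were lower in HG than in IFE of the same pup in all 4 pups. HG over IFE was 0.491 and 0.487 for Krt1 in transgenic pups and 0.411 and 0.573 in control pups. For Krt10 it was 0.442 and 0.682 in transgenic pups and 0.319 and 0.628 in control pups, and for Krt16 0.593 and 0.320 in transgenic pups and 0.499 and 0.413 in control pups. None of the 3 passed in the unpaired fit, where Krt1 had a log2 fold change of -1.03 in transgenic pups (adjusted p = 0.173) and -1.12 in control pups (adjusted p = 0.509). With the pup as a replicate block, Krt1 (-1.03, adjusted p = 0.00459) and Krt16 (-1.20, adjusted p = 0.0112) were called lower in transgenic HG, and Krt10 was not (-0.87, adjusted p = 0.0582). The blocked fit called 1019 genes in transgenic pups, against 658 in the unpaired fit. In control pups 0 of 26 keratins were called, where 0.00705% of all genes were (1 gene), with 7 at an unadjusted p under 0.05, against 8.46% of all genes, and 0 by DESeq2 or limma-voom. Basal Krt5 and Krt14 stayed within 0.650 to 1.34 times IFE in the 4 pups, on both sides of 1.

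Whether the transgene's effect differed between HG and IFE was tested with an interaction term, and 0 of 26 keratins passed, where 0.134% of all genes did (3 at an unadjusted p under 0.05, against 8.09% of all genes, and 0 by DESeq2 or limma-voom). The difference, HG minus IFE, was 0.56 on the log2 scale for Krt15 (SE 0.44, adjusted p = 0.855), 0.35 for Krt14 (SE 0.41, adjusted p = 0.938) and -1.80 for Krt18 (SE 1.26, adjusted p = 0.811). Krt17 gave 0.52 (SE 0.33, adjusted p = 0.787) and Krt6a 2.45 (SE 1.06, adjusted p = 0.585). So the calls of Krt14, Krt15 and Krt18 in IFE are not shown to be particular to IFE.

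The transgene carries microRNAs of the miR-200 family, short RNAs that lower the level or translation of transcripts holding matches to their seed, bases 2 to 8. The mature sequences of the cluster are printed from RefSeq (GRCm38.p6, chromosome 4, minus strand), with the seed in capitals, to show what was searched for.
mmu-miR-200b-3p: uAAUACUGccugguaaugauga
mmu-miR-429-3p: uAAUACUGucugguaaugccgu
mmu-miR-200a-3p: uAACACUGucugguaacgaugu
The miR-200b and miR-429 seeds are the same and pair with CAGTATT, and that of miR-200a pairs with CAGTGTT. The match CAGTATT stood in the 3′ UTR of 3 of 49 keratins with an annotated UTR, 6.12%, against 13.3% of 20981 protein-coding genes. CAGTGTT stood in 4 of 49, 8.16%, against 17.2%. The keratin UTRs were also shorter, with a median of 366 bases against 962, so a lower share is not set apart from length here. The members with a match were Krt7, Krt72, Krt75, Krt80, Krt82 and Krt222. None of Krt5, Krt14, Krt15, Krt17 and Krt18 had one. For the 3 matched genes with the most counts over the 8 libraries, the sites are printed with the match in capitals, and Krt222 has one of each kind.
Krt80 (CAGTATT): ctcccagacacctgaCAGTATTgggggacg
Krt222 (CAGTATT): tttaaggagcagactCAGTATTcacttagg
Krt222 (CAGTGTT): tagtgcaatctactgCAGTGTTgggactgg
Krt7 (CAGTGTT): tgtagcaagagaccaCAGTGTTtagctgtg
Krt80, a type II keratin named here for its site, had 50.6 and 35.6 CPM in transgenic HG against 62.0 and 40.6 CPM in control HG, and 41.3 and 27.7 CPM in transgenic IFE against 91.1 and 37.8 CPM in control IFE. The genotypes overlapped in both populations, and it passed in neither, with log2 fold changes of -0.24 in HG (SE 0.40, adjusted p = 0.808) and -0.89 in IFE (SE 0.41, adjusted p = 0.292).

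Genes that work with keratins were taken as fixed lists. Of 20 tested partners of keratin filaments, the desmosome plaque, plakin and filaggrin genes, 0 were called in HG, where 0.952% of all genes were. In IFE 1 fell, where 1.35% of all genes did, and the medians were -0.000368 in HG and -0.45 in IFE. In IFE 13 of the 20 were lower with no overlap and 5 higher, where 25% and 27.9% of all genes were. The called gene was Perp, a desmosome protein of stratified epithelia, at 661 and 652 CPM in transgenic IFE against 1338 and 1462 CPM in control IFE (log2 fold change -1.09, SE 0.21, adjusted p = 0.00973). Among 18 transcription factors known to act on keratin genes or on the layers that express them, 2 fell in IFE and 0 rose. Of all genes, 1.35% fell and 4.99% rose there. In HG 0 were called, where 0.952% of all genes were. The medians were -0.34 in IFE and -0.02 in HG. Trp63, the p63 gene that sets basal keratinocyte identity, stood at 598 and 651 CPM in transgenic IFE against 1108 and 1089 CPM in control IFE (log2 fold change -0.81, SE 0.20, adjusted p = 0.0356), and at 1339 and 1093 CPM in transgenic HG against 1231 and 1075 CPM in control HG. Tfap2a, an AP-2 factor of the epidermis, stood at 116 and 141 CPM in transgenic IFE against 209 and 215 CPM in control IFE (log2 fold change -0.72, SE 0.19, adjusted p = 0.0477). Both fell in IFE as Krt14 and Krt15 did, and no cause is drawn from this. Of 52 keratin-associated protein genes, the matrix proteins of the hair shaft, 7 had a count and 3 were tested. Between genotypes 0 were called, where 0.952% of all genes were in HG and 6.34% in IFE.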

How the data were processed

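RNA was sequenced from Trizol extracts of sorted cells with a stranded total RNA kit for low input, per the labels' protocols. The deposited files give counts of reads per gene symbol, made by the authors with TopHat and HTSeq on mm10 (GRCm38), per the submitters' processing notes, which also name DESeq2. No source used here gives versions or strand setting. The 5 summary lines of each file were left out.

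Counts were tested with edgeR 4.0.16 (R 4.3.3) by quasi-likelihood: trimmed-mean scaling, filterByExpr, 4 group means over 8 libraries and Benjamini-Hochberg adjustment per contrast over 14176 genes, with a threshold of 0.05. The pipeline was tested on simulated data with 200 changed genes. CPM use the trimmed-mean effective sizes. Lengths per kb are merged GENCODE exons. Shares of 50-base windows were matched to all transcripts.

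Text names members called in any contrast, the 3 highest per class averaging 1 CPM or more, and Krt1, Krt2, Krt5, Krt6a, Krt8, Krt10, Krt14, Krt15, Krt17, Krt18, Krt75 and Krt79. The members, classes and lists were chosen with earlier results of these data known.

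HG and IFE libraries with 1 pup number come from 1 animal, per the labels. Their deviations from group means correlated at 0.117 in control pups and 0.0868 in transgenic pups over 14176 genes, and at 0.394 and 0.191 over the 7365 genes of at least 4 log2 CPM. Alternatives were other scalings, filters, tools (DESeq2 1.42.0, limma 3.58.1), the block on pups and leaving out libraries.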

Additional observations from a re-analysis of the deposited data

How the results depend on the processing

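Among refits of single keratins, 502 kept direction and side of the threshold, 38 gained a call, 21 lost one and 5 reversed. Between transgenic and control HG, 0 keratins were called in the main test, 5 with library size alone (Krt6a, Krt15, Krt18, Krt73 and Krt79) and 5 with DESeq2 (Krt6a, Krt14, Krt15, Krt17 and Krt18), 3 with no filter and 3 with Rn45s removed before scaling (Krt6a, Krt15 and Krt18 in both), and 0 to 3 leaving out 1 library. Over all genes that contrast gave 135 calls, and 1 to 663 over the alternatives. In IFE the main test called 3 (1 up and 2 down over Krt14, Krt15 and Krt18), the other settings 2 to 4, and leaving out 1 library 1 to 5. With library size alone the 3 were 2 up and 1 down, as Krt79 took the place of Krt14, and over all genes 195 to 1277 were called, against 899. In transgenic HG against IFE the 1 call, Krt17, was 0 with library size alone, 0 without both libraries of pup 4, 0 without the 2 libraries richest in Rn45s, 4 with the compared groups alone (Krt1, Krt10, Krt16 and Krt17) and 3 with the replicate block (Krt1, Krt16 and Krt17), and 0 to 1 leaving out 1 library. Over all genes that contrast gave 658 calls, with 1385 for the compared groups alone and 1019 with the replicate block. The cause of these shifts was not tested. The block was run for HG against IFE and for the difference of effects, where it changed no other call, and could not be fitted between genotypes, which share no pup. In control pups and for the difference of effects 0 keratins were called under every setting run. The reversals were small values near 0: Krt17 between genotypes in IFE at -0.042 without control IFE pup 3 (up to 0.34 leaving out 1 library) and -0.062 without the 2 libraries richest in Rn45s, the difference of effects for Krt15 at -0.19 without transgenic HG pup 4 (up to 0.96) and -0.18 without both libraries of pup 4, and that for Krt18 at 0.039 without control HG pup 5 (down to -2.55). With 7109871 to 14039583 counts a library, keratins under about 4 CPM rest on few counts, and their fold changes have standard errors near or above 1.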

Other observations

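Tested keratins outside the rule on naming are given here by value. Krt9, a type I keratin of palm and sole skin, had 0.528 and 0 CPM in transgenic HG against 5.36 and 1.53 CPM in control HG, and 0.135 and 1.74 CPM in transgenic IFE against 0 and 0.424 CPM in control IFE. Krt78 had 8.10 and 0 CPM in transgenic HG against 2.64 and 3.19 CPM in control HG, and 7.28 and 5.29 CPM in transgenic IFE against 0.522 and 1.78 CPM in control IFE. Krt19, a type I keratin of simple epithelia and of follicle stem cells, did not exceed 3.26 CPM in any library and was at 0 in 3 of them. Krt4, a keratin of mucosa, did not exceed 2.44 CPM. More members had at least 1 count in transgenic pup 4, 38 in HG and 38 in IFE, than in the other libraries, which had 27 to 34.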
